A study of Mus musculus with 6 samples.

Results

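Transcripts of 41 genes for Polycomb proteins, subunits of the BAF remodelling complex, a pair of CHD remodellers and the enzymes that write or oxidise DNA methylation were followed in cells sorted from mouse embryonic forebrain for Prominin1, which the labels call radial glia, the neural progenitors of this tissue. The genes were found by symbol in the deposited expected-count table, where 41 of 52636 rows carried a symbol of the list: 5 of Polycomb repressive complex PRC2, 9 of PRC1, 19 of BAF, 2 CHD genes, 3 DNA methyltransferases and 3 TET genes. The tested libraries, labelled SmadNes, came from embryos at E12.5 with 1 floxed and 1 wild-type allele of Smad1 and of Smad5 and 1 copy of Nestin:Cre (Smad1wt/fl;Smad5wt/fl;Nestin:Cre+/0), a transgene that drives Cre in neural progenitors. The control littermates had the same floxed alleles and no Cre (Smad1wt/fl;Smad5wt/fl;Nestin:Cre0/0), so both genotypes were heterozygous for the floxed alleles. All embryos were of a mixed CD1, 129/ola and C57BL6 background. Cells positive for the surface protein Prominin1 were sorted from dissociated forebrain, and 3 pools per genotype, named SF3, SF4 and SF5_6 in both, were sequenced as stranded mRNA libraries. The labels do not say how many embryos made up a pool or what the pool names stand for. As separate litters are not stated either, a p-value here reflects only how far these 6 pools scatter, which may be technical.

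Polycomb repressive complexes keep developmental genes silent: PRC2 methylates histone H3 through Ezh2 or Ezh1, and PRC1 ubiquitinates histone H2A through Ring1 or Rnf2 and binds methylated H3 through its Cbx subunits. BAF complexes use the ATPases Smarca4 or Smarca2 to move nucleosomes and open chromatin, and neural progenitors exchange some subunits (Actl6a, Phf10 and Ss18) for neuronal ones (Actl6b, Dpf1 or Dpf3, and Ss18l1) as they become neurons. Dnmt1 copies DNA methylation at replication, Dnmt3a and Dnmt3b place it anew, and the TET enzymes oxidise it.

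RefSeq promoter windows of GRCm38.p6, from 250 bases before to 50 bases after the start of a transcript, were matched to 36 of the 41 genes, in 44 windows. Not matched were Cbx2, Arid2, Smarce1, Ss18 and Chd7. The 4 windows printed here belong to a progenitor subunit and the neuronal subunit that takes its place (Actl6a and Actl6b), to a second neuronal subunit (Ss18l1), and to the methyltransferase gene with the largest difference between pools among the 41 genes (Dnmt3b). They lie at chr3:32708296-32708595 (Actl6a), chr5:137553296-137553595 (Actl6b), chr2:180042233-180042532 (Ss18l1) and chr2:153649199-153649498 (Dnmt3b), all on the plus strand. Each CG dinucleotide, the site of DNA methylation in mammals, is in capitals.
Actl6a: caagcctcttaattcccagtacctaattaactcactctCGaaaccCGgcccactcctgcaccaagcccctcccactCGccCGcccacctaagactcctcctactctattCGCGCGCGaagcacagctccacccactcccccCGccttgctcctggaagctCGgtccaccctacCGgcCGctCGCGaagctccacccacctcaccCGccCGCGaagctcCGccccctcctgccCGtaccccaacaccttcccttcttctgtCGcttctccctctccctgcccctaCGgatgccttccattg
Actl6b: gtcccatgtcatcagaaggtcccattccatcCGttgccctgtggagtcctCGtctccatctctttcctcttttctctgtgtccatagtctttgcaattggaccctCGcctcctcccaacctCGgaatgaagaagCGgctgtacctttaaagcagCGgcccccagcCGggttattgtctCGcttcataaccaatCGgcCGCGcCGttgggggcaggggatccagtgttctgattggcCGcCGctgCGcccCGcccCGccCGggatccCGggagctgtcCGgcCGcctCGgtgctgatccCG
Ss18l1: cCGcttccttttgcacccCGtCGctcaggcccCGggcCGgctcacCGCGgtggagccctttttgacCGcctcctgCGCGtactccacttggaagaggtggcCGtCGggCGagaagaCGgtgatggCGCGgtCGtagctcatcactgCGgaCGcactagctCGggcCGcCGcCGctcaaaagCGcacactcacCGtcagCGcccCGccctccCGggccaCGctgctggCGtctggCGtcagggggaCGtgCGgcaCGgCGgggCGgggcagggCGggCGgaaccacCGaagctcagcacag
Dnmt3b: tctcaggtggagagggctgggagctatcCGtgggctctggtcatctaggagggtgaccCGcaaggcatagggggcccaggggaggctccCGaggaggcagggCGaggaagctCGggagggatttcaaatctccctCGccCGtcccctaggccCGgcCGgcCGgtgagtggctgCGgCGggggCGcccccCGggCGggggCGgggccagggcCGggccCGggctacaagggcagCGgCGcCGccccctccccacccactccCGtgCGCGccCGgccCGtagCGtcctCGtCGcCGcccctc
The Actl6a window held 21 CG dinucleotides, the Actl6b window 23, the Ss18l1 window 39 and the Dnmt3b window 30. The median over the 44 windows was 29.5, against 7 over all 32851 windows of 27025 genes in the table. Counts ranged between 2 and 62 in the 44 windows. The motif CANNTG (an E-box, its own reverse complement, so that 1 reading covers both strands) occurred in 26 of the 44 windows (59.1%), against 72.3% of all windows. The motif GGCGCC, also its own reverse complement, occurred in 17 (38.6%), against 11.9% of all windows, and it contains a CG. The median GC content was 68.3% in the 44 windows and 52.7% in all windows.

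Library totals lay between 32997423 and 40744672 expected counts, and libraries were compared as CPM (counts scaled to a common library total) with TMM scaling, which adjusts library totals for composition. Whole-gene counts of both targeted genes were higher in the libraries labelled SmadNes: Smad5 had 388, 410 and 373 CPM in SmadNes pools SF3, SF4 and SF5_6, against 289, 299.7 and 287 CPM in the control pools of these names, and Smad1 lay between 85.7 and 92.8 CPM, against 72.7 to 77.8 CPM. In the edgeR fit with the pool name as a block, Smad5 was higher by 0.42 ± 0.03 (log2, SE), at an adjusted p of 0.00757. It was 1 of 4 genes called of 16869 in that fit, and was not called without the block (adjusted p = 0.965 by edgeR). Smad1 was higher by 0.23 ± 0.04 with the block (adjusted p = 0.257 by edgeR). These counts cover exons outside the floxed part and check nothing about the deletion, so the genotype is given as labelled. The cause of the higher counts was not tested. The summed level of 12 radial glia markers was 2731 to 3276 CPM in SmadNes and 2549 to 3132 CPM in control libraries, with Prom1, the gene of the sort marker, among them. The summed level of 13 neuron markers was 4600.2 to 5873 CPM in SmadNes and 4632 to 6693 CPM in control libraries, and none of these markers was at 0. Sums over different genes do not give the proportions of the cell types. The libraries of pool SF5_6 stood apart from those of SF3 and SF4 in both genotypes, and the counts of called genes per complex are also given with single libraries left out.

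All 41 genes were expressed, passed the filter on low counts and are protein coding. Mean levels over the 6 libraries ran between 3.62 CPM (Dpf3) and 866 CPM (Smarca4), and none was below 1 CPM. Levels of different genes were compared per kilobase of merged exons (CPM per kilobase, GENCODE M21), and on this scale the highest gene stood 176-fold above the lowest. Smarca4, the main BAF ATPase of embryonic cells, was the most abundant per kilobase, at 133 ± 9.92 in SmadNes and 135 ± 11.7 in control libraries (SD, n = 3 each). It was followed by the BAF core subunit Smarcc2, at 95.8 ± 6.54 in SmadNes and 98.9 ± 10.2 in control libraries. With merged exons as length, neither gene's range over the 6 libraries touched that of the next gene in the order. Per kilobase of the longest transcript the highest means were 136 for Smarca4, 119 for Smarcc2 and 104 for Ezh2. On that scale the ranges of Smarca4 and Smarcc2 overlapped, as did those of Smarcc2 and Ezh2. Of the 40 neighbouring pairs in the merged-exon order, 33 overlapped between libraries, among them Smarcd1, Smarcc1 and Arid1a. The other gaps without overlap were those between Tet3, Chd8 and Smarcb1, between Ss18 and Tet2, between Cbx8 and Dnmt3b, and between Ezh1 and Dpf3. At the bottom stood Dnmt3b and Ezh1, at means of 2.20 and 2.18 CPM per kilobase, then Dpf3 and the PRC1 subunit gene Cbx7, at means of 0.858 and 0.762.

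**Figure D1:**
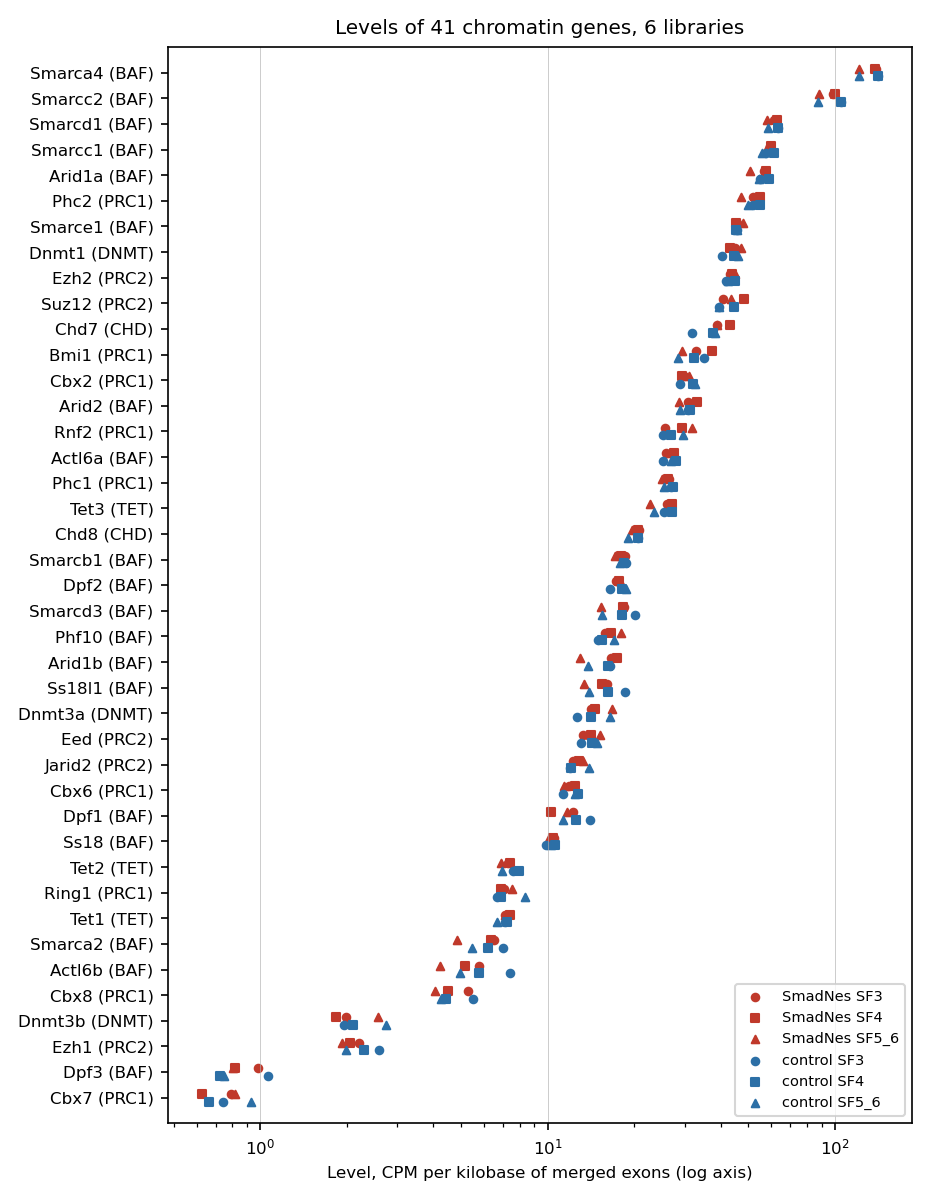
Level of each of the 41 genes in CPM per kilobase of merged exons (log axis), with 1 point per library (red, SmadNes; blue, control; the marker shape gives the pool). The genes run from Smarca4 at 133 and 135 CPM per kilobase (means of SmadNes and of control libraries) down to Cbx7 at 0.745 and 0.779, and the points of both genotypes lie together at each gene.

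In PRC2 the catalytic subunit of dividing cells, Ezh2 (chr6:47530139-47595341), far exceeded its paralog Ezh1. Ezh2 had 288, 294 and 299 CPM in SmadNes pools SF3, SF4 and SF5_6, against 279.5, 299.6 and 284 CPM in control pools. Ezh1 had 16.5, 15.3 and 14.3 CPM in SmadNes and 19.3, 17.1 and 14.8 CPM in control pools. Ezh2 was nearly level over the 6 libraries, and Ezh1 was highest in pool SF3 and lowest in SF5_6 in both genotypes. Per kilobase the Ezh2 to Ezh1 ratio was 21.4 ± 1.89 in SmadNes and 19.0 ± 2.65 in control libraries. The other PRC2 genes were Suz12 and Eed, both core subunits, at means of 42.7 and 14.1 CPM per kilobase, and Jarid2, which helps the complex bind, at 12.7. Ezh2 had a mean of 43.5 per kilobase of merged exons, and the ranges of Ezh2 and Suz12 overlapped on this scale. Per kilobase of the longest transcript they did not lie together, at means of 104 for Ezh2 and 48.2 for Suz12.

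In PRC1 the ubiquitin ligase Rnf2 stood above its paralog Ring1, with a per-kilobase ratio of 4.05 ± 0.340 in SmadNes and 3.75 ± 0.185 in control libraries. Bmi1, a partner of these ligases that keeps neural stem cells dividing, had a mean of 32.5 CPM per kilobase. Among the chromobox genes, whose proteins bring PRC1 to methylated histone H3, Cbx2 dominated, at 30.1 ± 0.894 CPM per kilobase in SmadNes and 31.1 ± 1.91 in control libraries. Cbx6 reached 11.9 ± 0.488 CPM per kilobase in SmadNes and 12.2 ± 0.785 in control libraries, while Cbx8 had a mean of 4.67 and Cbx7 of 0.762. The Cbx2 to Cbx7 ratio was 40.9 ± 5.11 in SmadNes and 40.6 ± 6.69 in control libraries. The Cbx8 to Cbx6 ratio was 0.387 ± 0.0498 in SmadNes and 0.391 ± 0.0825 in control libraries. Of the Polyhomeotic genes, whose proteins cluster PRC1, Phc1 had a mean of 26.2 and Phc2 of 51.7 CPM per kilobase, and the Phc1 to Phc2 ratio was 0.504 ± 0.0275 in SmadNes and 0.511 ± 0.0101 in control libraries.

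Of the progenitor and neuronal forms of BAF subunits, Actl6a exceeded Actl6b with either length, while Phf10 did so in every library and Ss18 on average with 1 of the 2 lengths only. Actl6a (chr3:32706298-32726973) had 101, 107 and 104 CPM in SmadNes pools SF3, SF4 and SF5_6, against 97.7, 109 and 105 CPM in control pools. Actl6b (chr5:137553517-137569582) had 24.7, 22.1 and 17.96 CPM in SmadNes pools, against 31.5, 24.6 and 21.2 CPM in control pools. The progenitor subunit was thus flat, while the neuronal one was highest in SF3 and lowest in SF5_6 in both genotypes and lower in SmadNes than in control within each pool name. Per kilobase the Actl6a to Actl6b ratio was 5.38 ± 0.931 in SmadNes and 4.57 ± 1.05 in control libraries, and the genotypes overlapped. In bulk RNA, fewer cells of a type and less RNA per cell cannot be told apart. Phf10, the progenitor form of a plant homeodomain (PHD) finger subunit, and its neuronal counterpart Dpf1 had a ratio of 1.48 ± 0.169 in SmadNes and 1.27 ± 0.225 in control libraries. With the longest transcript as length that ratio ran between 0.793 and 1.21 over the 6 libraries, on both sides of 1. Dpf2, the widely expressed member of that family, exceeded the neuronal Dpf3 by a ratio of 20.5 ± 2.51 in SmadNes and 21.9 ± 5.58 in control libraries. For Ss18 and its neuronal paralog Ss18l1 the mean ratio was 0.668 per kilobase of merged exons and 1.51 per kilobase of the longest transcript.

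Among the other BAF subunits, the ATPase Smarca4 exceeded its paralog Smarca2 by a ratio of 22.8 ± 2.16 in SmadNes and 21.7 ± 1.38 in control libraries, and the mean over all libraries was 22.2 with merged exons and 9.37 with the longest transcript. The core scaffold Smarcc1 stood below its paralog Smarcc2, with a ratio of 0.621 ± 0.0373 in SmadNes and 0.592 ± 0.0474 in control libraries. Smarcd1 exceeded Smarcd3, the form known from neurons and heart, by 3.51 ± 0.219 in SmadNes and 3.47 ± 0.315 in control libraries. Arid1a, the DNA-binding subunit of canonical BAF, exceeded its paralog Arid1b by 3.53 ± 0.315 in SmadNes and 3.62 ± 0.302 in control libraries. It exceeded Arid2, the subunit of the PBAF form, by 1.79 ± 0.0514 in SmadNes and 1.84 ± 0.0629 in control libraries. The core subunits Smarce1 and Smarcb1 had means of 45.8 and 18.1 CPM per kilobase.

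The CHD remodellers Chd7 and Chd8, both mutated in human neurodevelopmental syndromes, had a Chd8 to Chd7 ratio of 0.508 ± 0.0293 in SmadNes and 0.564 ± 0.0789 in control libraries. The maintenance methyltransferase Dnmt1 exceeded Dnmt3a by 2.98 ± 0.172 in SmadNes and 3.05 ± 0.211 in control libraries. Dnmt3a in turn exceeded Dnmt3b by 7.20 ± 0.757 in SmadNes and 6.42 ± 0.364 in control libraries. Tet3 was the most abundant TET gene: the Tet1 to Tet3 ratio was 0.287 ± 0.0226 in SmadNes and 0.276 ± 0.00903 in control libraries, and the Tet2 to Tet3 ratio was 0.286 ± 0.0155 in SmadNes and 0.296 ± 0.00249 in control libraries. In all 19 pairs of genes compared in this way the ratios of the genotypes overlapped.

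The genotype comparison asks which of these transcripts differ when Cre is present with the floxed Smad alleles, and none of the 41 passed the test. With edgeR's quasi-likelihood test and Benjamini-Hochberg adjustment over all genes, 0 of the 41 were called at an adjusted p below 0.05, against 0.0% of 16869 genes tested. At an unadjusted p below 0.05 it was 0 of 41, against 1.05% of all genes. DESeq2 called 0 of 41, against 0.0415% of all genes, and limma-voom 0 of 41, against 0.00593%. The log2 differences, SmadNes minus control, lay between -0.25 (Actl6b) and 0.16 (Chd7), with a median of -0.01 over the 41 genes and of -0.00 over all genes tested. Of the 41 genes, 35 lay within 0.1 of 0 on the log2 scale, 19 were positive and 22 negative. The median size of the difference, whatever its sign, was 0.04 for the 41 genes and 0.06 for all genes tested. With the pool name as a block, edgeR called 0 of the 41, against 0.0237% of all genes, and DESeq2 0 of the 41, against 0.0771%. The lowest adjusted p among the 41 in the blocked edgeR fit was 0.435 (Actl6b). In that fit 6 of 41 had an unadjusted p below 0.05, against 6.23% of all genes: Chd7, Suz12 and Phf10 were higher in SmadNes, against 2.78% of all genes, and Actl6b, Ss18l1 and Dpf1 lower, against 3.45%. The difference had the same sign in all 3 pairs of same-named pools for 14 of the 41 genes (7 higher, 7 lower), against 28.1% of all genes (13.8% higher, 14.3% lower). Genotype differences given below with an SE come from the fit without the block, unless the block is named. Their median SE over the 41 genes was 0.07, against 0.04 with the block. Leaving out 1 library from the fit without the block keeps its pool in 1 genotype only, so that estimate mixes pool and genotype.

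**Figure D2:**
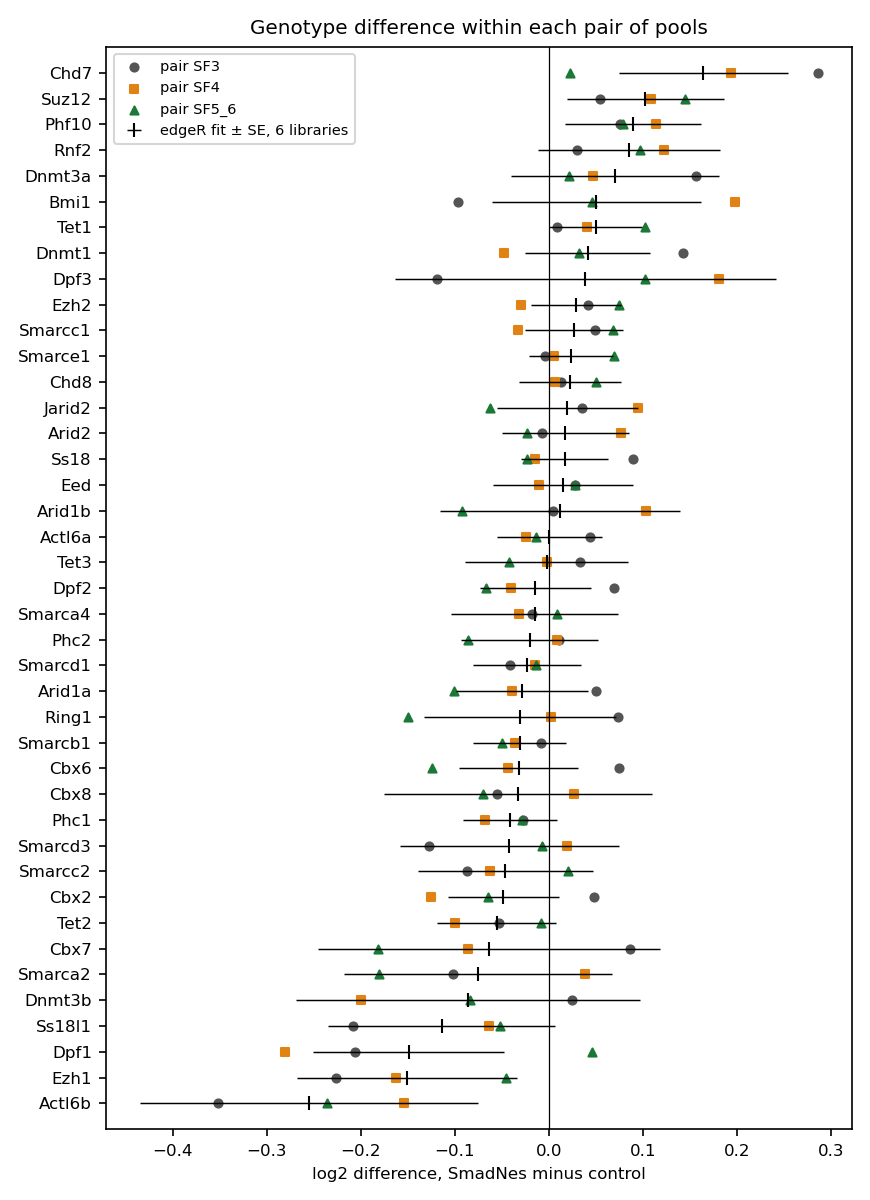
Genotype difference of each of the 41 genes as log2 SmadNes minus control: 1 coloured point per pair of same-named pools, and a black bar for the edgeR estimate over 6 libraries, without the block, with its SE. Estimates run between -0.25 (Actl6b) and 0.16 (Chd7), and for 27 of the 41 genes the 3 pairs do not share a sign.

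Chd7 (chr4:8690406-8867659), a remodeller that binds enhancers in neural crest and neural progenitors, had the largest positive estimate. It had 534, 595 and 537 CPM in SmadNes pools SF3, SF4 and SF5_6, against 438, 520.4 and 529 CPM in control pools. The lowest SmadNes value lay just above the highest control value, and Chd7 was the 1 gene of the 41 whose genotypes did not overlap in CPM, against 4.77% of all genes in either direction and 2.39% with SmadNes higher. The fitted difference was 0.16 ± 0.09 (log2, SE), with an unadjusted p of 0.115 by edgeR. With the block and all pairs it was 0.17 ± 0.05, at an adjusted p of 0.582 by edgeR. With the block and without the SF5_6 pair the adjusted p was 0.0213 at a log2 difference of 0.24. Without the SF3 pair it was 0.833 at 0.11. Leaving out single libraries in the fit without the block gave log2 differences between 0.08 (without control SF3) and 0.21 (without control SF5_6). The differences were 0.29 in the SF3 pair, 0.19 in the SF4 pair and 0.02 in the SF5_6 pair.

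Actl6b had the largest negative estimate, -0.25 ± 0.18 (log2, SE), at an unadjusted p of 0.204 by edgeR. With the block it was -0.25 ± 0.06, at an unadjusted p of 0.00324 and an adjusted p of 0.435 by edgeR. In the fit without the block, the estimate was -0.08 without control SF3, -0.14 without SmadNes SF5_6 and -0.38 without control SF5_6. With the block and 1 pair left out, it was -0.19 (without SF3), -0.30 (without SF4) and -0.26 (without SF5_6). The differences were -0.35, -0.15 and -0.24 in the SF3, SF4 and SF5_6 pairs, so all 3 were negative although the genotypes overlapped. The sum of the neuron markers was lower in SmadNes in pool SF3 and slightly so in SF5_6, and slightly higher in SF4. It was 5873 CPM in SmadNes and 6693 CPM in control pool SF3, 5669 and 5602 CPM in pool SF4, and 4600.2 and 4632 CPM in pool SF5_6. Of these 13 markers, 5 were lower and 0 higher in SmadNes at an unadjusted p below 0.05 with the block. Among all genes, 3.45% were lower and 2.78% higher in that way. Set against that sum, a scale chosen after the values were seen, Actl6b had 4.21, 3.89 and 3.91 CPM per 1000 CPM of neuron markers in SmadNes pools, against 4.71, 4.39 and 4.57 in control pools. On this scale the genotypes did not overlap for Actl6b, and 0.711% of all genes lay lower in SmadNes in that way. Of the other genes put on this scale, none separated the genotypes. These were Actl6a, Phf10, Dpf1, Dpf3, Ss18, Ss18l1, Smarcd3 and Smarca2. Markers of the ventral forebrain were also lower in SmadNes, with sums of 70.4 CPM in SmadNes and 122 CPM in control pool SF3, 72.2 and 76.5 CPM in pool SF4, and 191 and 263 CPM in pool SF5_6. Of these 10 markers, 6 were lower and 0 higher in SmadNes at an unadjusted p below 0.05 with the block. The part of neuron content or of ventral cells in the Actl6b difference was not tested, and the scale per neuron marker is no test of it.

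The remaining neuronal subunit genes gave smaller or less uniform values. Dpf1 (chr7:29303951-29318243) had 65.7, 55.4 and 62.7 CPM in SmadNes pools SF3, SF4 and SF5_6, against 75.8, 67.3 and 60.7 CPM in control pools. It was lower in SmadNes in the SF3 and SF4 pairs and slightly higher in the SF5_6 pair. The fitted difference was -0.15 ± 0.10 (log2, SE), and with the block it was -0.15 ± 0.06 (adjusted p = 0.771 by edgeR). With the block and without the SF5_6 pair it was -0.24 at an adjusted p of 0.0413 by edgeR. Dpf1 and Chd7 were the 2 genes called in that fit, which called 149 genes in all. Dpf1 lies on chromosome 7, where 129 of 1328 genes (9.71%) had an unadjusted p below 0.05 in the blocked fit of all pairs, against 5.93% on the other chromosomes. Ss18l1 had 69.9, 67.3 and 58.3 CPM in SmadNes pools, against 80.8, 70.3 and 60.4 CPM in control pools. It was lower in SmadNes in each pair, by a fitted -0.11 ± 0.12, which was -0.22 without control SF5_6 and -0.00 without control SF3. With the block it was -0.11 ± 0.05 (adjusted p = 0.772 by edgeR). Dpf3, at 3.67 ± 0.418 CPM in SmadNes and 3.58 ± 0.811 CPM in control libraries (SD, n = 3 each), did not share a sign over the pairs.

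Among the progenitor subunits, Phf10 had 77.7, 81.9 and 88.4 CPM in SmadNes pools SF3, SF4 and SF5_6, against 73.7, 75.7 and 83.7 CPM in control pools. It was higher in SmadNes in each pair, with overlapping genotypes, at a fitted 0.09 ± 0.07 (log2, SE), or 0.04 to 0.14 with 1 library left out. With the block it was 0.09 ± 0.04 (adjusted p = 0.773 by edgeR). Actl6a differed by 0.00 ± 0.06 and Ss18 by 0.02 ± 0.05.

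Of the Polycomb genes, Suz12 and Rnf2 were higher and Ezh1 and Phc1 lower in SmadNes in each of the 3 pairs, none of them past the threshold. Suz12 had 202, 238 and 215 CPM in SmadNes pools SF3, SF4 and SF5_6, against 195, 221 and 195 CPM in control pools. The genotypes overlapped, and the fitted difference was 0.10 ± 0.08 (log2, SE). With the block it was 0.10 ± 0.04, at an adjusted p of 0.673 by edgeR. Rnf2 had 106, 121 and 131 CPM in SmadNes pools, against 104, 111 and 122 CPM in control pools, a difference of 0.09 ± 0.10. Within each pool name the values were close and the pools set the order. For Ezh1 the difference was -0.15 ± 0.12 and for Phc1 -0.04 ± 0.05. Single libraries moved these estimates in the fit without the block. With 1 left out, Suz12 lay between 0.04 and 0.16, Rnf2 between 0.01 and 0.16, and Ezh1 between -0.25 and -0.05. With the block and all pairs, Rnf2 differed by 0.08 ± 0.04 and Ezh1 by -0.15 ± 0.07 (adjusted p = 0.801 for both by edgeR). Ezh2 differed by 0.03 ± 0.05. In the DNA methylation genes, Tet1 had 110.1, 115 and 110.2 CPM in SmadNes pools and 109, 111 and 103 CPM in control pools, and Tet2 had 123, 125 and 116 CPM in SmadNes pools and 128, 134 and 117 CPM in control pools. Both overlapped between genotypes. Their differences were 0.05 ± 0.05 and -0.06 ± 0.06. Dnmt1 differed by 0.04 ± 0.07, Dnmt3a by 0.07 ± 0.11 and Dnmt3b by -0.09 ± 0.18.

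Between the pools a larger part of these genes passed the test. In a fit with genotype as a term, 17 of the 41 genes (41.5%) differed between the pool names at an adjusted p below 0.05 (edgeR F test of both pool terms), against 28.8% of all genes. They were Suz12, Eed, Rnf2, Bmi1, Cbx8, Phc2, Smarca2, Smarca4, Smarcc2, Smarcd3, Actl6b, Arid1b, Phf10, Ss18l1, Dnmt3a, Dnmt3b and Tet3. Leaving out each library in turn gave between 11 and 17 calls, the lowest number without control SF5_6. Actl6b, Arid1b, Dnmt3a, Rnf2, Smarca2, Smarcd3 and Ss18l1 were called in all 6 of those fits, and Eed and Phf10 in 0. In the contrast of SF5_6 minus the mean of SF3 and SF4, 22 of the 41 were called, 15 lower (36.6%) and 7 higher (17.1%) in SF5_6, against 15.6% lower and 16.8% higher among all genes and 32.5% in either direction. The share of higher genes was near that of all genes. The median contrast was -0.08 over the 41 genes and 0.01 over all genes tested (log2). The number called in the contrast was 14 without SmadNes SF4 (9 lower, 5 higher), 14 without SmadNes SF5_6 (9 lower, 5 higher) and 11 without control SF5_6 (8 lower, 3 higher). In the fit without control SF5_6, 9.48% of all genes were lower and 8.96% higher. In the fit without SmadNes SF4 these shares of all genes were 10.7% and 12.1%. Leaving out an SF5_6 library keeps a single library of that pool. The SF5_6 libraries did not overlap the other 4 libraries in CPM for 28 of the 41 genes (19 below, 9 above), against 48.0% of all genes (24.8% below, 23.2% above).

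**Figure D3:**
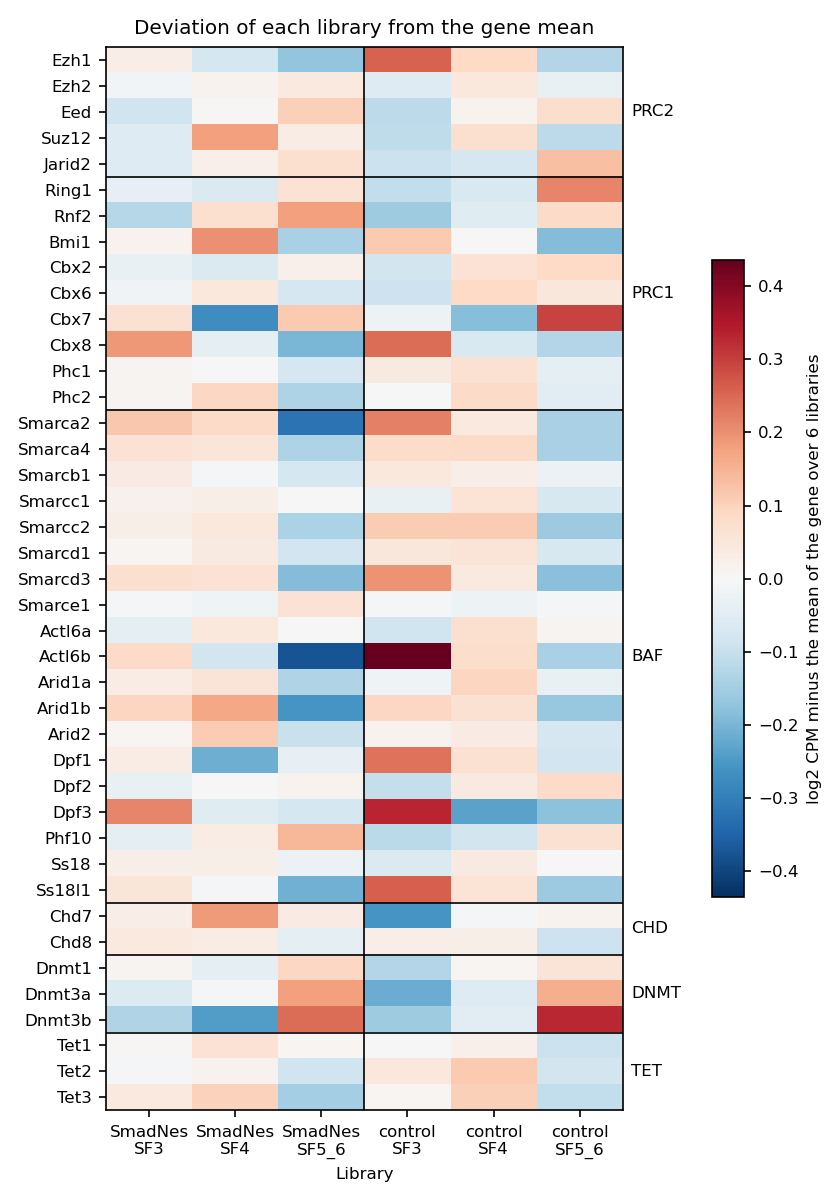
Deviation of each library from the mean of the gene over 6 libraries (log2 CPM), for the 41 genes by complex, with the SmadNes libraries on the left and the control libraries on the right. The SF5_6 columns of both genotypes share their sign for many BAF genes (blue, below the gene mean) and for Dnmt3a and Dnmt3b (red, above it).

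**Figure D4:**
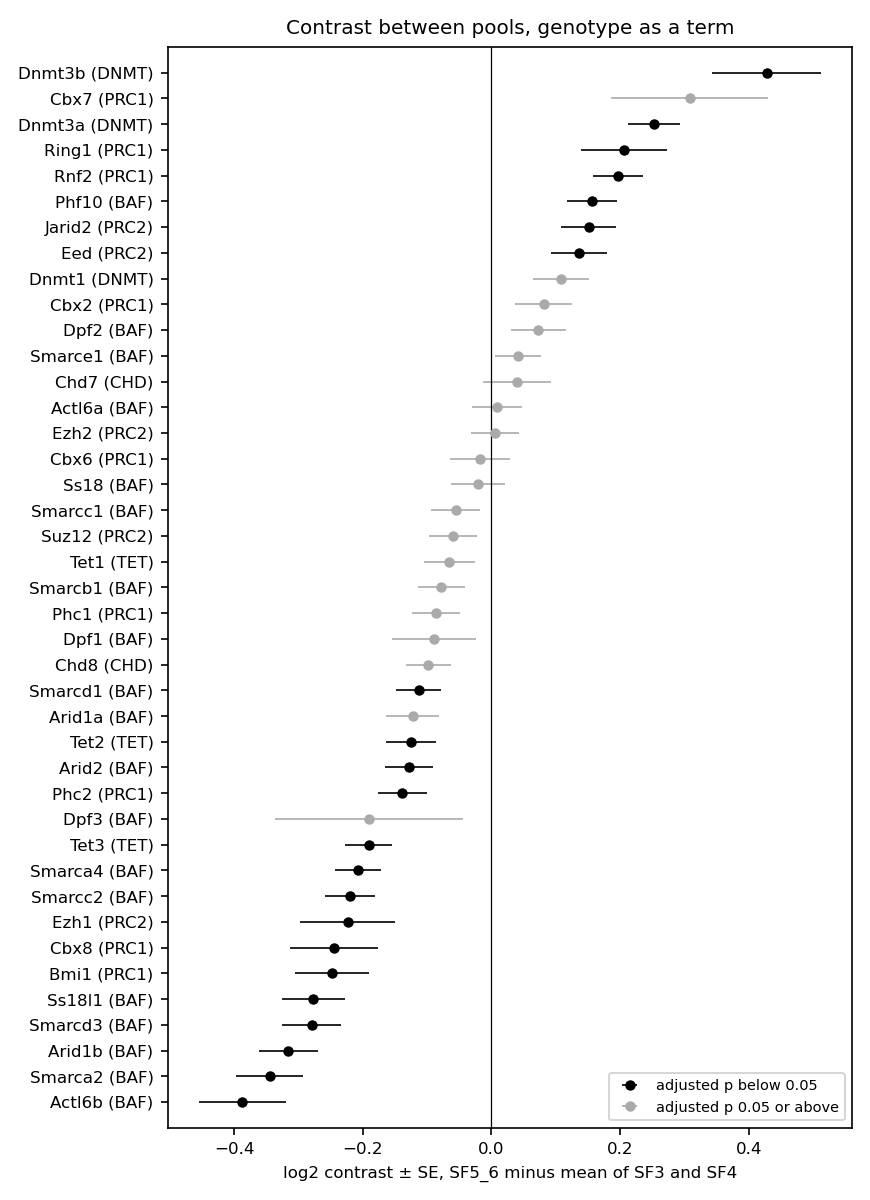
Contrast of pool SF5_6 minus the mean of SF3 and SF4 for each of the 41 genes (log2, point with SE), with genotype as a term of the fit; black points have an adjusted p below 0.05. The 15 genes lower in SF5_6 run to -0.39 (Actl6b) and the 7 higher ones to 0.43 (Dnmt3b).

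Of the 19 BAF genes, 9 were lower (47.4%) and 1 was higher (5.26%) in SF5_6, against 15.6% lower and 16.8% higher among all genes, with a median contrast of -0.12. Without control SF5_6, 5 of the 19 were lower (26.3%) and 0 higher, against 9.48% and 8.96% of all genes in that fit, and with any other single library left out 7 to 9 were lower. Among all genes, 10.7% to 14.7% were lower with an SF3 or SF4 library left out. Actl6b had 17.96 CPM in SmadNes and 21.2 CPM in control SF5_6, against 24.7 and 22.1 CPM in SmadNes SF3 and SF4 and 31.5 and 24.6 CPM in control SF3 and SF4. Both SF5_6 libraries lay below the other 4, and the contrast was -0.39 ± 0.07 (log2, SE; adjusted p = 0.00273 by edgeR). Ss18l1 had 58.3 CPM in SmadNes and 60.4 CPM in control SF5_6, against 69.9 and 67.3 CPM in SmadNes SF3 and SF4 and 80.8 and 70.3 CPM in control SF3 and SF4, a contrast of -0.28 ± 0.05. Smarcd3 had 78.8 CPM in SmadNes and 79.2 CPM in control SF5_6, against 94.3 and 93.9 CPM in SmadNes SF3 and SF4 and 103 and 92.7 CPM in control SF3 and SF4, a contrast of -0.28 ± 0.05. These 3 genes, whose products belong to the neuronal form of BAF, were thus lower in SF5_6 in both genotypes, as the plot of levels by pool shows.

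The ATPase gene Smarca2 had 68.7 CPM in SmadNes and 77.9 CPM in control SF5_6, against 93.1 and 90.9 CPM in SmadNes SF3 and SF4 and 99.9 and 88.5 CPM in control SF3 and SF4. Its contrast was -0.34 ± 0.05 (log2, SE). Arid1b had 164 CPM in SmadNes and 175 CPM in control SF5_6, against 209 and 220.3 CPM in SmadNes SF3 and SF4 and 208 and 205 CPM in control SF3 and SF4, a contrast of -0.32 ± 0.05. For both genes the SF5_6 libraries lay below the other 4. The broadly expressed core genes Smarca4 and Smarcc2 were lower too, by smaller contrasts. Smarca4 had 788 CPM in SmadNes and 783 CPM in control SF5_6, against 902 and 896 CPM in SmadNes SF3 and SF4 and 914 and 916 CPM in control SF3 and SF4. Smarcc2 had 490.4 CPM in SmadNes and 484 CPM in control SF5_6, against 549 and 557 CPM in SmadNes SF3 and SF4 and 583 and 582 CPM in control SF3 and SF4. Both were lower in SF5_6 in each genotype with no overlap. Their contrasts were -0.21 ± 0.04 and -0.22 ± 0.04, and without control SF5_6 the adjusted p was 0.0514 for Smarca4 and 0.0684 for Smarcc2 by edgeR. Smarcd1 and Arid2 were lower by -0.11 ± 0.04 and -0.13 ± 0.04.

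**Figure D5:**
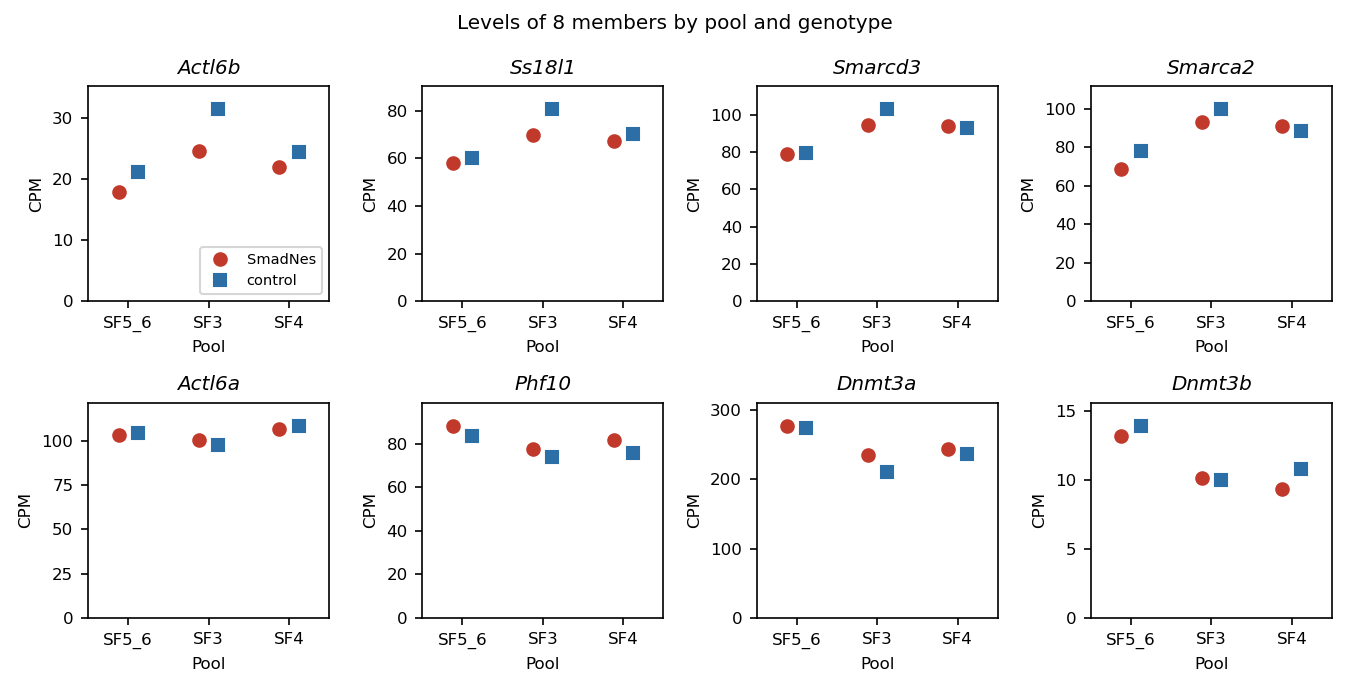
Level of 8 of the genes in CPM by pool (SF5_6, SF3 and SF4), with 1 point per library (red circle, SmadNes; blue square, control) and an axis that starts at 0. Actl6b, Ss18l1, Smarcd3 and Smarca2 are lowest in SF5_6 in both genotypes, Dnmt3a, Dnmt3b and Phf10 highest there, and Actl6a stays between 97.7 and 109 CPM.

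The progenitor subunits did not share this direction. Phf10 was higher in SF5_6, with 88.4 CPM in SmadNes and 83.7 CPM in control, against 73.7 to 81.9 CPM in the other 4 libraries, a contrast of 0.16 ± 0.04 (log2, SE). It was not called in that contrast without SmadNes SF5_6, without control SF4 or without control SF5_6. Actl6a and Ss18 were not called, with contrasts of 0.01 ± 0.04 and -0.02 ± 0.04, and Dpf1, a neuronal subunit gene, was not called either, at -0.09 ± 0.07. The neuron markers were lower in SF5_6 as well: their sum was 4600.2 CPM in SmadNes and 4632 CPM in control SF5_6, against 5602 to 6693 CPM in the other 4 libraries, with 9 of 13 lower and 2 higher in the contrast. Markers of radial glia were higher there: their sum was 3276 CPM in SmadNes and 3132 CPM in control SF5_6, against 2549 to 2947 CPM in the other 4, with 9 of 12 higher and 0 lower (5 of 12 higher without control SF5_6). Markers of intermediate progenitors, the cells between radial glia and neurons, summed to 1248 CPM in SmadNes and 1317 CPM in control SF5_6, against 1801 to 1952 CPM in the other 4, with 8 of 8 lower. Mesenchyme, erythroid and ventral forebrain markers were highest in SF5_6. Mesenchyme markers summed to 1275 CPM in SmadNes and 1015 CPM in control SF5_6, against 262 to 870.0 CPM in the other 4. Ventral forebrain markers summed to 191 CPM in SmadNes and 263 CPM in control SF5_6, against 70.4 to 122 CPM, and erythroid markers to 583 CPM in SmadNes and 981 CPM in control SF5_6, against 113 to 368 CPM. Microglia markers summed to 63.3 CPM in SmadNes and 60.1 CPM in control SF5_6, inside the range of 9.95 to 84.6 CPM of the other 4, with 7 of 8 higher in the contrast. Among all genes, 15.6% were lower and 16.8% higher in that contrast. The part of these cell types in the differences between pools was not tested.

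The Polycomb genes divided in both directions between pools, where 15.6% of all genes were lower and 16.8% higher in SF5_6. Of the 5 PRC2 genes, Eed and Jarid2 were higher and Ezh1 lower in SF5_6, by contrasts of 0.14 ± 0.04, 0.15 ± 0.04 and -0.22 ± 0.07 (log2, SE), while Ezh2 was not called at 0.01 ± 0.04. Suz12 was called in the F test but not in the contrast (-0.06 ± 0.04), and within each genotype its SF4 library was the highest. With any 1 control library left out, 0 of the 5 PRC2 genes were called. Of the 9 PRC1 genes, the ligases Rnf2 and Ring1 were higher and Bmi1, Cbx8 and Phc2 lower. Rnf2 had 131 CPM in SmadNes and 122 CPM in control SF5_6, against 106 and 121 CPM in SmadNes SF3 and SF4 and 104 and 111 CPM in control SF3 and SF4. The SF5_6 libraries were the highest, and the contrast was 0.20 ± 0.04 (adjusted p = 0.00554 by edgeR). Bmi1 and Cbx8 had contrasts of -0.25 ± 0.06 and -0.25 ± 0.07, and Phc2 of -0.14 ± 0.04. Ring1 was higher by 0.21 ± 0.07. Of the 9, 1 was lower and 1 higher without SmadNes SF4 (11.1% each), near the 10.7% and 12.1% of all genes in that fit. With SmadNes SF5_6 or control SF5_6 left out a single library of that pool remains. Fewer of the 9 were then called than with all libraries, and fewer of all genes as well.

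Of the methyltransferase genes, both that place methylation anew were higher in SF5_6, where 16.8% of all genes were higher and 15.6% lower. Dnmt3a (chr12:3806007-3914443) had 278 CPM in SmadNes and 274 CPM in control SF5_6, against 236 and 244 CPM in SmadNes SF3 and SF4 and 211 and 236 CPM in control SF3 and SF4. Dnmt3b (chr2:153649450-153687730) had 13.1 CPM in SmadNes and 13.9 CPM in control SF5_6, against 10.1 and 9.37 CPM in SmadNes SF3 and SF4 and 9.97 and 10.8 CPM in control SF3 and SF4. For both, the SF5_6 libraries lay above the other 4. The contrasts were 0.25 ± 0.04 for Dnmt3a (log2, SE; adjusted p = 0.00174 by edgeR) and 0.43 ± 0.08 for Dnmt3b (adjusted p = 0.00527). Dnmt1, whose product works at the replication fork, was not called at 0.11 ± 0.04, an adjusted p of 0.0954. S-phase markers summed to 1354 CPM in SmadNes and 1238 CPM in control SF5_6, against 1025 to 1226 CPM in the other 4 libraries, with 7 of 10 higher in SF5_6 (3 of 10 without SmadNes SF5_6, SmadNes SF4 or control SF3), and the part of the cell cycle in the differences was not tested. Tet3 had 379.7 CPM in SmadNes and 391 CPM in control SF5_6, against 433 and 451 CPM in SmadNes SF3 and SF4 and 423 and 452 CPM in control SF3 and SF4. It was lowest in SF5_6, by -0.19 ± 0.04, and without SmadNes SF5_6 its adjusted p was 0.0723. Tet2 was lower by -0.12 ± 0.04 and Tet1 was not called at -0.07 ± 0.04. Without SmadNes SF5_6, 0 of the 3 TET genes were called in the contrast. The CHD genes were not called, at 0.04 ± 0.05 for Chd7 and -0.10 ± 0.04 for Chd8.

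Other genes of the same pathways were read from lists of related subunits and readers. By genotype, 0 of 27 other Polycomb genes, 0 of 13 other BAF genes, 0 of 15 other CHD and ISWI remodellers and 0 of 21 other DNA methylation genes were called with edgeR, and 0 of each list had an unadjusted p below 0.05. DESeq2 and limma-voom called 0 as well. In the contrast between pools, 5 of the 13 other BAF genes were lower (38.5%) and 0 higher in SF5_6, against 15.6% lower, 16.8% higher and 32.5% in either direction among all genes. With single libraries left out 5 to 7 were lower. Bcl11a, a zinc-finger subunit of neuronal BAF, had 388 CPM in SmadNes and 394 CPM in control SF5_6, against 592 to 614 CPM in the other 4 libraries, a contrast of -0.63 ± 0.04 (log2, SE). Bcl7a, another subunit, and Bcl11b, which is also one of the 13 neuron markers above, had contrasts of -0.65 ± 0.04 and -0.73 ± 0.04. All 3 contrasts were larger in size than that of any of the 41 genes.

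Of the 27 other Polycomb genes, 8 were lower (29.6%) and 1 was higher (3.7%) in SF5_6, against 15.6% and 16.8% of all genes. In either direction 33.3% were called, near the 32.5% of all genes. Without SmadNes SF4, 5 were lower (18.5%) and 2 higher (7.41%), against 10.7% and 12.1% of all genes in that fit. The fewest were lower without SmadNes SF5_6, a fit that keeps a single library of that pool. The largest contrasts named were those of Rybp, a PRC1 subunit, at -0.45 ± 0.04 (log2, SE), and Kdm2b, which takes PRC1 to CpG islands, at -0.37 ± 0.05. The 15 other remodellers were called both ways, with 4 higher and 5 lower, against 4 higher and 1 lower without control SF5_6. With all libraries that was 26.7% higher and 33.3% lower, against 16.8% and 15.6% of all genes. Chd3, a subunit of the NuRD complex, was lower at -0.57 ± 0.04, and Hells, a helicase needed for DNA methylation, was higher at 0.41 ± 0.06. Of the 21 other DNA methylation genes, 7 were higher and 6 lower, against 1 higher and 2 lower without control SF5_6. With all libraries that was 33.3% higher and 28.6% lower, again against 16.8% and 15.6% of all genes. Uhrf1, which guides Dnmt1 to new DNA, had 243 CPM in SmadNes and 227 CPM in control SF5_6, against 158 to 182 CPM in the other 4 libraries, a contrast of 0.45 ± 0.05. Zbtb38, a reader of methylated DNA, was lower at -0.72 ± 0.07.

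Most genes listed as kept silent by these systems were near 0, and Tdrkh was an exception. Of 39 Hox genes, which Polycomb silences in the forebrain, 22 had a count of 0 in all 6 libraries, where 0 counts allow at most 0.0909 CPM per library, and 1 passed the filter. That gene, Hoxb9, had 20, 24 and 5 counts in SmadNes pools SF3, SF4 and SF5_6, against 10, 26 and 4 counts in control pools. It was low in SF5_6 in both genotypes. Of 20 germline genes, listed as silenced by promoter methylation in somatic cells, 3 were at 0 in all libraries and 4 passed the filter. Of these 4, Brdt averaged 1.29 ± 0.173 CPM in SmadNes and 1.45 ± 0.221 CPM in control libraries, Ddx4 1.06 ± 0.369 and 1.16 ± 0.239 CPM, and Tdrd1 0.650 ± 0.237 and 0.766 ± 0.0990 CPM (SD, n = 3 each). Tdrkh, at 60.2 ± 2.85 CPM in SmadNes and 61.4 ± 3.89 CPM in control libraries, was clearly expressed. None of these 5 genes was called by genotype, and Hoxb9 alone among them was called between pools (contrast -1.99 ± 0.43, log2, SE, adjusted p = 0.00791 by edgeR).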

How the data were processed

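RNA of sorted Prominin1-positive cells was measured in 6 libraries, 3 SmadNes and 3 control pools. Per the labels' protocols the authors aligned the reads with STAR 2.5.3a (GRCm38), and isoforms were quantified by RSEM 1.3.0 in its stranded mode against GENCODE M15. DESeq2 1.18 also stands in the submitters' processing notes. The deposited values are expected counts per gene, already whole. The sources used here do not state how isoforms were summed or values rounded. Because RSEM divides ambiguous reads by estimation, near-identical gene copies are uncertain.

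The 41 genes and all lists were chosen with earlier results of these data known. From the table, 52489 gene IDs matched GENCODE M21 (GRCm38), which gave positions, merged exon lengths and longest transcripts. Expected counts were tested with edgeR 4.0.16 in R 4.3.3 (quasi-likelihood F test, TMM, filterByExpr, two-sided, Benjamini-Hochberg over 16869 genes, threshold 0.05), for genotype alone and for pool names with genotype as a term. CPM values carry TMM scaling. Totals of 32997423 to 40744672 counts put the limit that a count of 0 allows (3 counts) at 0.0909 CPM or less; it reflects counting error alone. Within a genotype, pairs of libraries gave a chi-square per degree of freedom of 11.4 to 47.7, which sets each apart from the rest. The fits were tested on simulated data with known changes, all larger than any genotype difference among the 41 genes. For the genotype fit without the block, the simulated libraries had less spread than the real ones and no difference between pools. The simulation thus does not tell how small a genotype difference that fit could find.

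Deviations from the genotype mean correlated across genes at 0.493, 0.697 and 0.724 between same-named pools and at -0.058 or below between others, and the labels speak of pairs chosen for RNA integrity, so the names pair the samples. Values were given in every library for up to 10 genes with the same sign in all 3 pairs (smallest genotype p), up to 12 by the pool F test and both genes of 19 pairs by level or ratio, and other chromatin genes for up to 4 per list. Smarce1 and the scale per neuron marker were chosen after values were seen. Alternatives were RLE size factors, no filter, DESeq2 1.42.0, limma-voom 3.58.1, the replicate block, each library or pair left out, and longest-transcript lengths.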

Additional observations from a re-analysis of the deposited data

How the results depend on the processing

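With 3 pools per genotype and 2 libraries per pool name, small differences lie under the spread between pools, and levels per kilobase depend on the exon length used. The genotype comparison called 0 genes in edgeR without the block, 7 with DESeq2, 1 with limma-voom, 4 with the replicate block (edgeR) and 13 with DESeq2 and the replicate block. With the block and 1 pair left out it called 10 (without SF3), 48 (without SF4) and 149 of 16917 genes tested (without SF5_6). Of the 41 genes it called 2, Chd7 and Dpf1, with the block and without the SF5_6 pair, and 0 in every other genotype setting run; the block changed no other call among them. Leaving out 1 library left 0 genotype calls in each case. The pool F test called 4864 genes, 3161 with DESeq2 and 3380 to 5035 with 1 library left out; among the 41 it called 11 to 17 with 1 library left out. The SF5_6 contrast called 5475 genes, 3302 with DESeq2 and 3159 to 5365 with 1 library left out; among the 41 it called 11 to 21, the lowest without control SF5_6. With no filter, the F test called 6357 of 28368 genes tested and 22 of the 41. With the longest transcript as length, the log2 ratio of Ss18 to Ss18l1 was 0.59 against -0.59 with merged exons, and the mean log2 ratio of the other 18 pairs kept its sign; for Phf10 to Dpf1 it was 0.02, with single libraries on both sides of 0. The causes of these changes were not tested.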

Other observations

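Uniform transcripts stood beside those that differed between pools. Smarce1, a core BAF subunit gene, had 303, 301 and 318 CPM in SmadNes pools SF3, SF4 and SF5_6, against 304, 300.2 and 303 CPM in control pools. All 6 libraries lay within a narrow range. The core scaffold Smarcc1 had 466, 469 and 459 CPM in SmadNes pools, against 450.4, 479.7 and 438 CPM in control pools. Its paralog Smarcc2 was lower in SF5_6, so the Smarcc1 to Smarcc2 ratio per kilobase was 0.664 in SmadNes and 0.642 in control SF5_6, against 0.602 and 0.597 in SmadNes SF3 and SF4 and 0.548 and 0.585 in control SF3 and SF4. The ratio was thus highest in SF5_6 in both genotypes, a description with no test, chosen after the values were seen.

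Cbx7 had 5.13, 4.06 and 5.31 CPM in SmadNes pools SF3, SF4 and SF5_6, against 4.83, 4.31 and 6.02 CPM in control pools. It was lowest in SF4 and highest in SF5_6 in both genotypes, and was not called between pools (adjusted p = 0.112 by edgeR's F test). Cbx8, by contrast, had 19.4, 16.6 and 14.9 CPM in SmadNes pools, against 20.2, 16.3 and 15.6 CPM in control pools.

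Microglia markers were lowest in pool SF4 in both genotypes, with sums of 84.6, 9.95 and 63.3 CPM in SmadNes pools SF3, SF4 and SF5_6, against 80.7, 12.4 and 60.1 CPM in control pools. Endothelial markers summed to 20.3 to 23.2 CPM in SmadNes and 17.9 to 24.0 CPM in control libraries. The part of these cells in the levels of the 41 genes was not tested.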
